A study of Mus musculus with 8 samples.

Results

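The aminoacyl-tRNA synthetase genes described here are 38 of the 20145 named genes on the arrays. They comprise 20 cytosolic enzymes, 16 mitochondrial enzymes whose symbols end in 2, and the 2 scaffold proteins Aimp1 and Aimp2. A listed gene was a member when the RefSeq accession of a non-control probe led to its symbol or a synonym of it. This rule used no measured value, but the list was chosen with earlier results of these data known. The 38 genes had 47 probes, with 1 probe for each of 29 genes and a pair of probes for each of 9. Mars was reached as a synonym of Mars1.

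The arrays carried total RNA from tumours grown in female BALB/c mice that were 6 to 8 weeks old at injection. The PRH-labelled tumours (4 arrays) came from 4T1 cells, which are mammary carcinoma cells of the mouse, that had been infected with an adenovirus carrying PRH, and the control tumours (4 arrays) from 4T1 cells infected with an empty adenovirus. In both groups the infection lasted 24 h at a multiplicity of infection of 50, 250000 cells went into the no. 3 fat pad, and tumours were taken on day 22. Both groups held mouse numbers 1, 2, 3 and 5, and the labels do not say whether the tumours of a number grew in the same animal or whether animals were pooled. The virus was given to the cells once, before injection, so the tumours also hold host cells that never met it. The labels differ on the material, which the study's design text calls tumour RNA and the extraction protocol calls endothelial isolates.

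PRH, a homeodomain transcription factor, is the protein of Hhex. The Hhex probe read -1.71, -1.46, -1.79 and -1.72 on the PRH-labelled arrays of mouse numbers 1, 2, 3 and 5, against -0.54, -0.33, -0.69 and -0.78 on the control arrays. These and all later levels are log2 signal relative to the 75th percentile of the array. Hhex was thus lower in the PRH-labelled tumours (log2 difference -1.09, SE 0.149, limma adjusted p = 0.00686), which goes against the group's label. The files do not show whether this probe reads the viral transcript, so the groups are called by their labels throughout.

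Aminoacyl-tRNA synthetases join each amino acid to its tRNA, the step that sets which amino acid a codon adds to a protein. Cells keep separate sets for the cytosol and for the mitochondria, both encoded in the nucleus, while Kars and Gars each serve both compartments. In animal cells a group of the cytosolic enzymes is held with Aimp1, Aimp2 and Eef1e1 in the multisynthetase complex. The enzymes fall into class I and class II by the fold of the catalytic domain. When amino acids are short, uncharged tRNA activates the kinase Eif2ak4 (GCN2), and translation of the transcription factor Atf4 rises, whose targets in mammalian cells include many cytosolic synthetase genes.

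Promoter sequence is shown for 6 of the genes that passed the test, because these genes lie on both sides of the comparison although they do the same kind of work. Each run is the 150 bases before the transcription start in RefSeq, GRCm38.p6, written 5′ to 3′ on the strand of the gene. The coordinates are chr1:185362894-185363043 (plus strand) for Eprs, chr13:49681980-49682129 (plus strand) for Iars, chr10:127311787-127311936 (minus strand) for Mars, chr8:112011355-112011504 (minus strand) for Kars, chr9:108507855-108508004 (plus strand) for Qars and chr3:108445260-108445409 (minus strand) for Sars. Capitals mark CACGTG (an E-box), CCAAT (the CCAAT box) or CCGGAAG (an ETS core), found on either strand.
Genes lower in PRH-labelled tumours:
Eprs: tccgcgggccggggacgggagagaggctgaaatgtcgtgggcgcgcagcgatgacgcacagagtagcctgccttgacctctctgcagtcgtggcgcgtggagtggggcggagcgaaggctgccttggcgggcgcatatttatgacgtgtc
Iars: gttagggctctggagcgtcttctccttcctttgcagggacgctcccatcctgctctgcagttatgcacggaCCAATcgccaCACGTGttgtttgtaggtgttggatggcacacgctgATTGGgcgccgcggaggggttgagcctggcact
Mars: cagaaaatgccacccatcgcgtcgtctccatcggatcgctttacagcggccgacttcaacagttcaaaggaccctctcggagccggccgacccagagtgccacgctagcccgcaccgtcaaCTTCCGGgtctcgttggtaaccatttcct
Genes higher in PRH-labelled tumours:
Kars: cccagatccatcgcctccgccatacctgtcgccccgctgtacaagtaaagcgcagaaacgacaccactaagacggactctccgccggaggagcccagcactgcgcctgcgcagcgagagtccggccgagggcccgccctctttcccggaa
Qars: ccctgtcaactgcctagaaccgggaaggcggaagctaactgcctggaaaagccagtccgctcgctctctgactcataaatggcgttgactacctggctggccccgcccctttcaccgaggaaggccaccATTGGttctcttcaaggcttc
Sars: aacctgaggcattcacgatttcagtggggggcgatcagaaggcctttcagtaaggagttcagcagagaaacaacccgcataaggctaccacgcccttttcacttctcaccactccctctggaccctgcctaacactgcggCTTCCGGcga
The stretches of Eprs and Kars held none of the letters searched, and an ETS core stood 29 bases before the start of Mars and 10 bases before that of Sars.

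A promoter was in the table for 29 of the 38 genes, and 4 motifs were searched on both strands over the 250 bases before the start. No letters of one motif contain another. The amino acid response element core TGATGNAA, the kind of site that Atf4 binds with C/EBP partners, was in 3 of the 29 (Aars, Gars and Tars) and in 3.4% of all 32544 promoters. The next lines show it in capitals, read on the other strand, with its surroundings at chr8:111033704-111033763 (plus strand) for Aars, chr6:55037945-55038000 (plus strand) for Gars and chr15:11399659-11399699 (minus strand) for Tars.
Aars: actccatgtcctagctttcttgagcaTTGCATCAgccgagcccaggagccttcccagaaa
Gars: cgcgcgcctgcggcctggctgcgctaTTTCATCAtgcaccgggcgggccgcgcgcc
Tars: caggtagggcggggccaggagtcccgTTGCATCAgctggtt
CACGTG was in 3 members (Aars, Farsb and Iars) and in 6.03% of all promoters, CCAAT in 14 members and 33.8%, and CCGGAAG in 9 members and 6.95%. These matches are descriptions of the letters in these windows only.

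Of the 38 genes, 37 were well above background on all 8 arrays and entered the test. In the PRH-labelled tumours 3 were higher (Kars, Qars and Sars) and 5 were lower (Eprs, Iars, Mars, Rars and Tars2) at an adjusted p under 0.05. Among all 16377 named genes tested, 10.6% were higher and 12.9% lower, so the share of members in each direction, 8.11% and 13.5%, was close to that of named genes at large. The median log2 difference of the 37 was -0.13, against -0.02 for named genes and 0.29 for all 34543 items tested. The level of an RNA in a whole sample cannot tell fewer cells of a type from less RNA per cell, and this holds for each result below.

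**Figure D1:**
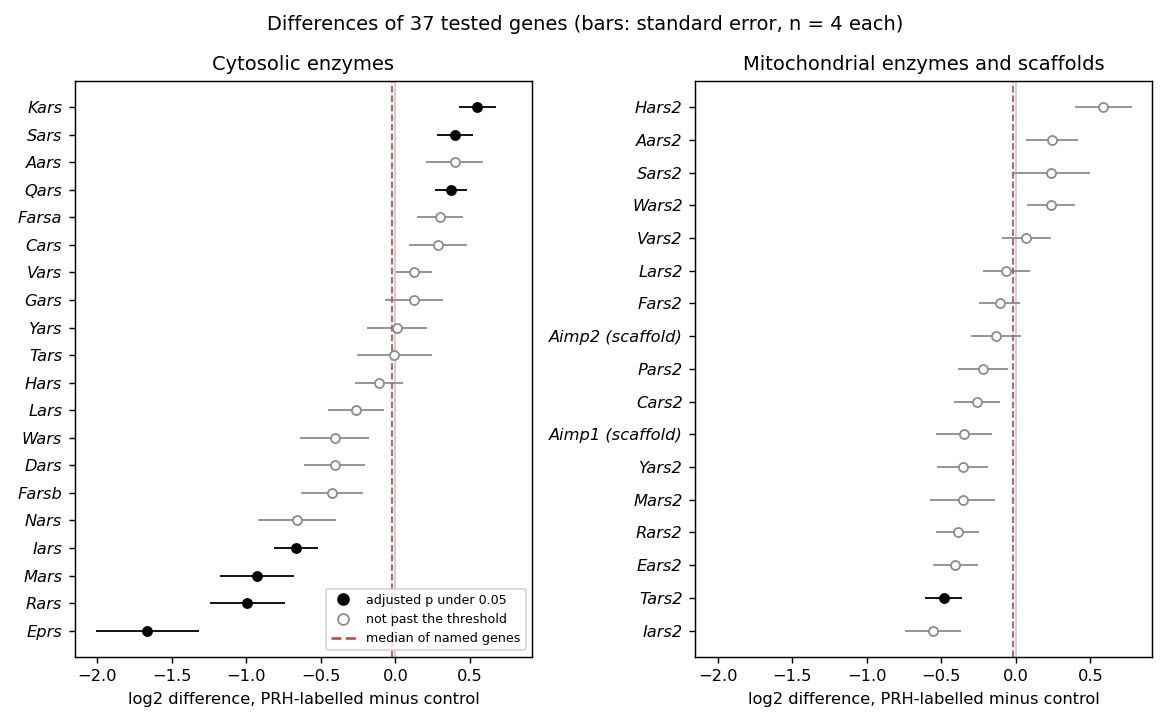
Log2 difference in signal, PRH-labelled minus control, for the 37 tested genes (points, with bars of 1 standard error, n = 4 arrays each), with filled points for an adjusted p under 0.05 and a dashed line at the median of named genes, -0.02. Eprs lies farthest to the left at -1.66, and no mitochondrial enzyme or scaffold has a filled point to the right of 0.

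The multisynthetase complex held 6 of the 8 genes that passed. Its 11 measured members include Eef1e1, which is outside the synthetase list. Of the 11, 4 were lower (Eprs, Iars, Mars and Rars) and 2 higher (Kars and Qars), against 12.9% and 10.6% of named genes. The median difference of the complex was -0.35. The 4 lower genes passed in the same direction under all 5 scalings of the arrays that were tried, as did 11.4% of named genes. No member was higher under all 5, against 2.91% of named genes.

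Eprs, which charges both glutamate and proline from one polypeptide, had the largest difference of the 37. Its level was -1.03, -1.0, -1.15 and -0.86 on the PRH-labelled arrays of mouse numbers 1, 2, 3 and 5, against -0.40, 0.87, 1.32 and 0.84 on the control arrays. The groups did not overlap, and control array 1 was the closest to the PRH-labelled range. Eprs was 3.17-fold lower in the PRH-labelled tumours (log2 difference -1.66, SE 0.347, adjusted p = 0.0132).

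Iars, the isoleucyl enzyme, had 2.36, 2.53, 2.31 and 2.34 on the PRH-labelled arrays and 2.76, 3.28, 3.12 and 3.04 on the control arrays. Every control array lay above every PRH-labelled array. The log2 difference was -0.67 (SE 0.148, adjusted p = 0.0161). Eprs and Iars were the genes of the 8 that kept an adjusted p under 0.05 whichever single array was left out, with a highest value of 0.0407 for Eprs and 0.0484 for Iars.

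Mars, the methionyl enzyme, which also charges the initiator tRNA, had 0.57, 0.68, 0.33 and 0.45 on the PRH-labelled arrays and 0.78, 1.51, 1.97 and 1.47 on the control arrays. The groups were separated, with control array 1 only slightly above the highest PRH-labelled array. The log2 difference was -0.93 (SE 0.248, adjusted p = 0.0303), and the call was kept in 1 of 8 fits that each left out 1 array, the one without control array 1, and the highest adjusted p over the 8 fits was 0.0761. In the annotation, Mars overlaps by 71 bases with Ddit3, a stress-response transcription factor, whose difference was 0.41 (adjusted p = 0.12).

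Rars, the arginyl enzyme, had -0.73, -1.42, -1.31 and -1.23 on the PRH-labelled arrays and -0.74, -0.08, 0.27 and -0.17 on the control arrays. The groups overlapped because the arrays of mouse number 1 were nearly equal, while the other 3 mouse numbers were lower under PRH. The log2 difference was -0.99 (SE 0.250, adjusted p = 0.0246). With the mouse number as a block the adjusted p was 0.0538, and 2 of the 8 fits that left out an array kept the call.

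Kars, the lysyl enzyme of both compartments, had 4.52, 4.58, 4.48 and 4.32 on the PRH-labelled arrays and 4.02, 3.99, 3.91 and 3.78 on the control arrays. The groups did not overlap, and both spread by little. The log2 difference was 0.55 (SE 0.124, adjusted p = 0.0171). It was 0.08 (adjusted p = 0.748) when each array was centred on its median instead, and 5 of 8 fits without an array kept the call.

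Qars, the glutaminyl enzyme, had 5.17, 5.19, 5.22 and 5.25 on the PRH-labelled arrays and 4.77, 4.89, 4.87 and 4.80 on the control arrays. The groups were apart and tight, with a log2 difference of 0.38 (SE 0.108, adjusted p = 0.0379). Under median centring the difference was -0.09 (adjusted p = 0.726), so its direction rests on the scaling. Qars also missed the threshold after normexp background correction (0.21, adjusted p = 0.139) and in the authors' values (0.21, adjusted p = 0.170). With the mouse number as a block the adjusted p was 0.0689, and 1 of 8 fits without an array kept the call.

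**Figure D2:**
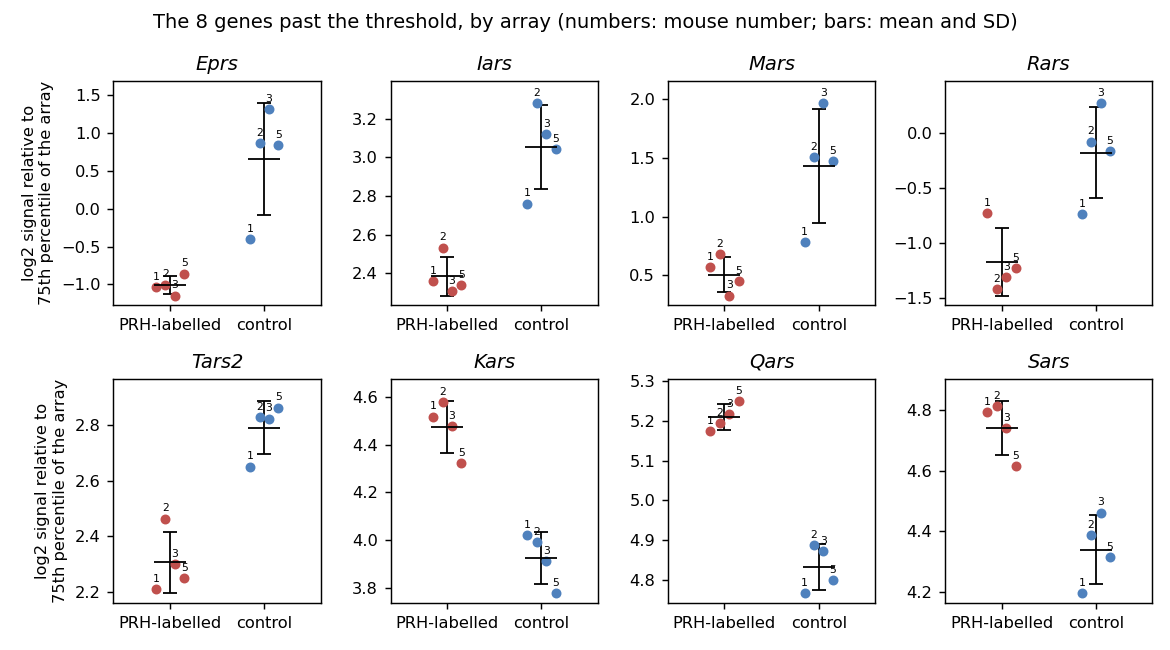
Log2 signal relative to the 75th percentile of the array for the 8 genes past the threshold, with PRH-labelled arrays in red on the left of each panel and control arrays in blue on the right, labelled by mouse number, and with the mean and SD as bars. The groups are apart in every panel but Rars, and control array 1 is the lowest control array in every panel but Kars.

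The other 5 members of the complex did not pass. Lars, the leucyl enzyme, differed by -0.26 (adjusted p = 0.333) and Dars, the aspartyl enzyme, by -0.41 (adjusted p = 0.183). The scaffold protein Aimp1 differed by -0.35 (adjusted p = 0.208), Aimp2 by -0.13 (adjusted p = 0.569) and Eef1e1, which is no synthetase, by -0.28 (adjusted p = 0.324). All 5 differences had the same sign as those of Eprs, Iars, Mars and Rars.

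Sars, the seryl enzyme, was the single cytosolic enzyme outside the complex that passed. It had 4.79, 4.81, 4.74 and 4.61 on the PRH-labelled arrays and 4.2, 4.39, 4.46 and 4.32 on the control arrays, without overlap. The log2 difference was 0.40 (SE 0.121, adjusted p = 0.0462). Under median centring it was -0.06 (adjusted p = 0.826). Blocking on the mouse number gave an adjusted p of 0.0714, and 1 of 8 fits without an array kept the call.

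The 3 genes whose promoters held the amino acid response element core did not pass. Aars, the alanyl enzyme, differed by 0.40 (adjusted p = 0.164), Gars, the glycyl enzyme, by 0.12 (adjusted p = 0.652) and Tars, the threonyl enzyme, by -0.01 (adjusted p = 0.989). Tars had 3.1, 3.27, 3.19 and 2.93 on the PRH-labelled arrays, all of them inside the control values of 2.54, 3.20, 3.75 and 3.02. For all 3 of these genes control array 3 was the highest control array.

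Nars, the asparaginyl enzyme, differed by -0.66 (SE 0.261, adjusted p = 0.103). It had 0.65, 1.17, 1.17 and 1.07 on the PRH-labelled arrays and 0.97, 1.83, 2.03 and 1.88 on the control arrays, so that only control array 1 fell within the PRH-labelled range. The adjusted p was 0.0288 with the mouse number as a block and 0.00792 without control array 1. The remaining cytosolic enzymes, Cars, Hars, Vars, Wars, Yars and both subunits of the phenylalanyl enzyme, Farsa and Farsb, lay between -0.43 (Farsb) and 0.30 (Farsa), and none of them passed. Wars, the tryptophanyl enzyme and a known interferon gamma target, was among the lower of these at -0.41 (adjusted p = 0.229).

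Of the 16 mitochondrial enzymes 15 were tested. None was higher and 1, Tars2, was lower in limma, and 5 of the 15 had an unadjusted p under 0.05, against 38% of named genes. Their median difference was -0.22. Tars2, the mitochondrial threonyl enzyme, had 2.21, 2.46, 2.30 and 2.25 on the PRH-labelled arrays and 2.65, 2.83, 2.82 and 2.86 on the control arrays. The groups did not overlap, and the log2 difference was -0.48 (SE 0.122, adjusted p = 0.0245). The other Tars2 probe, designed on another RefSeq transcript, differed by 0.11 (probe-level adjusted p = 0.511), and the mean of both probes by -0.19 (adjusted p = 0.261). In the authors' values Tars2 differed by -0.19 (adjusted p = 0.201), and 3 of 8 fits without an array kept the call.

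Ears2, the glutamyl enzyme, and Rars2, the arginyl enzyme of mitochondria, did not overlap between groups either. Ears2 differed by -0.41 (adjusted p = 0.0864) and Rars2 by -0.39 (adjusted p = 0.0867), and both passed without control array 1. In all, 3 of the 37 tested genes were higher without overlap and 6 were lower without overlap, against 13.4% and 17.2% of named genes.

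Hars2 had the highest positive difference of the mitochondrial enzymes at 0.59 (SE 0.192), with an adjusted p of 0.0589 in the fit without a block and of 0.0408 when blocked on the mouse number. It had 0.85, 1.34, 1.33 and 1.70 on the PRH-labelled arrays and 0.62, 0.73, 0.66 and 0.87 on the control arrays. Only the PRH-labelled array of mouse number 1 reached into the control range. Hars, its cytosolic counterpart, lies next to it in the genome and shares 4 annotated bases with it, and differed by -0.11 (adjusted p = 0.631). Whether Hars and Hars2 differed from each other was not tested.

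Iars2, the mitochondrial isoleucyl enzyme, differed by -0.56 (SE 0.188), with an adjusted p of 0.0643 without a block and 0.0463 when blocked on the mouse number. It had 0.64, 0.70, 0.91 and 0.78 on the PRH-labelled arrays and 0.88, 1.51, 1.63 and 1.24 on the control arrays, with control array 1 again inside the PRH-labelled range. Its other probe differed by -0.08. The other tested mitochondrial enzymes, Aars2, Cars2, Fars2, Lars2, Mars2, Pars2, Sars2, Vars2, Wars2 and Yars2, lay between -0.36 (Mars2) and 0.24 (Aars2). Mars2, the methionyl enzyme of mitochondria, was lower in the other 4 scalings, by -0.86 to -0.41 with adjusted p-values of 0.0298 to 0.0443, while Aars2 and Wars2 were below 0 in those 4 without passing.

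Nars2, the mitochondrial asparaginyl enzyme, was the member not tested. Its probe read -7.30, -6.79, -5.72 and -6.86 on the PRH-labelled arrays, where it was not well above background on any, and -5.44, -5.17, -4.92 and -4.48 on the control arrays, where it was well above background on 3 of 4. A floor was set for each PRH-labelled array, namely the dimmest probe well above background there or the Nars2 signal itself if that was brighter. The control mean stood 2.05-fold above the mean of these floors. That value is no strict limit, because the control mean includes the array where Nars2 was not well above background. The floor also does not cap a probe below background, and the spread between arrays does not enter. In a fit with no filter on dim probes Nars2 passed as lower (adjusted p = 0.0218). The measured means were -6.67 in PRH-labelled tumours and -5.0 in control tumours.

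Probes of the same gene disagreed for 4 further members. The brighter Farsa probe read 2.99, 3.29, 3.29 and 3.02 on the PRH-labelled arrays and 2.70, 2.99, 3.05 and 2.66 on the control arrays. It differed by 0.30, while the dimmer one differed by -0.62 (SE 0.193, probe-level adjusted p = 0.0488), although both carry the same accession. The dimmer Farsa probe read 1.18, 1.19, 0.93 and 1.06 on the PRH-labelled arrays and 1.31, 1.99, 2.03 and 1.54 on the control arrays, so this subunit has no settled direction here.

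The brighter Vars2 probe differed by 0.07 (adjusted p = 0.765), and the dimmer one by -1.23 (SE 0.332, probe-level adjusted p = 0.0304). The dimmer Vars2 probe read -2.49, -2.29, -2.59 and -2.47 on the PRH-labelled arrays, all below the control values of -2.23, -0.68, -1.22 and -0.79. Vars2 therefore counted as not passing, though one of its probes was lower.

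The brighter Wars2 probe differed by 0.24 (adjusted p = 0.316) and the dimmer one by 0.81 (SE 0.190, probe-level adjusted p = 0.0189). The mean of both Wars2 probes passed as higher, at 0.52 (adjusted p = 0.0407). The dimmer Wars2 probe read -1.02, -1.29, -1.34 and -1.25 on the PRH-labelled arrays, all above the control values of -1.60, -1.99, -2.39 and -2.18. The Pars2 probes had opposite signs, -0.22 and 0.30, and neither passed. The brighter Pars2 probe read -0.22, -0.07, -0.10 and -0.15 on the PRH-labelled arrays and -0.31, 0.30, 0.29 and 0.05 on the control arrays. The groups overlapped for both Pars2 probes.

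Cytosolic and mitochondrial enzymes were then set against each other on each array. For each gene the level was taken relative to its mean over the 8 arrays, and the median over genes was formed for each set. The cytosolic median minus the mitochondrial median was 0.17, 0.09, 0.05 and 0.02 on the PRH-labelled arrays, against -0.16, -0.03, 0.21 and -0.10 on the control arrays. The means were 0.08 and -0.02, a difference of 0.10, and the PRH-labelled values lay within the range of the control values. The 2 sets were thus not separated between the groups beyond the spread of the control arrays.

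The median over the 20 cytosolic enzymes alone was -0.04, 0.07, -0.08 and -0.10 on the PRH-labelled arrays and -0.25, 0.10, 0.43 and -0.02 on the control arrays. That of the mitochondrial enzymes was -0.21, -0.02, -0.12 and -0.13 on the PRH-labelled arrays and -0.09, 0.13, 0.23 and 0.08 on the control arrays. Both sets were more widely spread over the control arrays than over the PRH-labelled arrays. The multisynthetase complex was at -0.15, -0.19, -0.24 and -0.19 on the PRH-labelled arrays, against -0.22, 0.30, 0.55 and 0.18 on the control arrays, so that control array 1 alone lay within the PRH-labelled range.

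**Figure D3:**
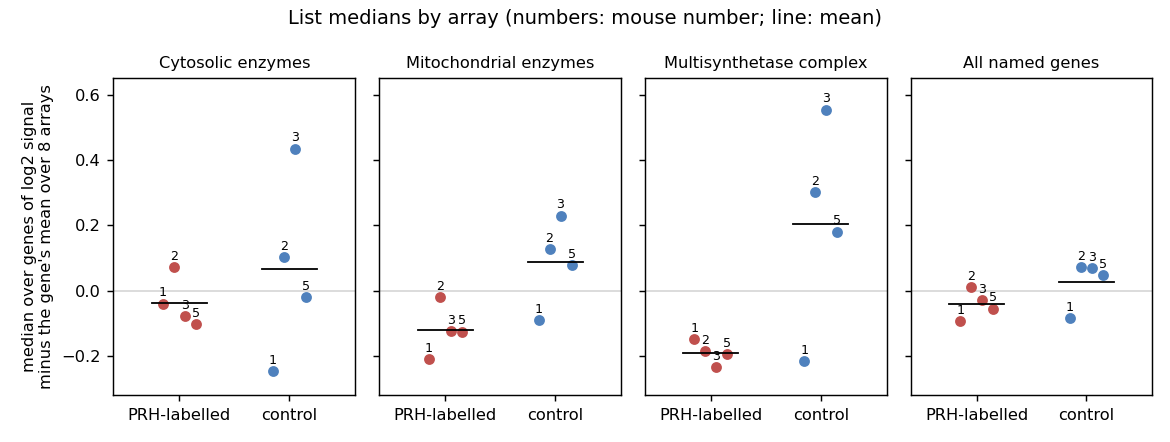
Median over genes of the log2 signal minus the gene's own mean over the 8 arrays, for the cytosolic enzymes, the mitochondrial enzymes, the multisynthetase complex and all named genes, with PRH-labelled arrays in red on the left, control arrays in blue on the right, mouse numbers as labels and a line at the mean. Control array 3 is highest in the first 3 panels, at 0.43, 0.23 and 0.55, and control array 1 stands at -0.25, -0.09 and -0.22.

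Control arrays 1 and 3 stood at opposite ends of the control group for most of these genes. Control array 1 was the lowest control array for 28 of the 37 (75.7%), against 41.8% of named genes, and control array 3 was the highest for 23 (62.2%), against 33.9% of named genes. Without control array 1 the tested members counted 3 higher and 11 lower, against 12.2% and 21.1% of named genes in the same fit. On that array the summed level of the B cell markers reached 21.8, against 0.554 to 0.623 on the PRH-labelled arrays, and that of the adipocyte markers reached 13.5, against 0.343 to 0.867 on the PRH-labelled arrays, in units of the array's 75th percentile. The part of these cell types in the result was not tested.

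By catalytic class, 1 of the 18 class I enzymes was higher (Qars) and 3 were lower (Iars, Mars and Rars), with a median of -0.31. Among named genes 10.6% were higher and 12.9% lower. Of the 16 tested class II enzymes 2 were higher (Kars and Sars) and 1 was lower (Tars2), with a median of 0.06. Eprs, which holds a catalytic domain of each class, was placed in neither. The median was the lower one in class I under all 5 scalings, while the class II median was below 0 in 3 of them, at -0.41 under median centring, -0.07 after normexp and -0.06 in the authors' values.

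**Figure D4:**
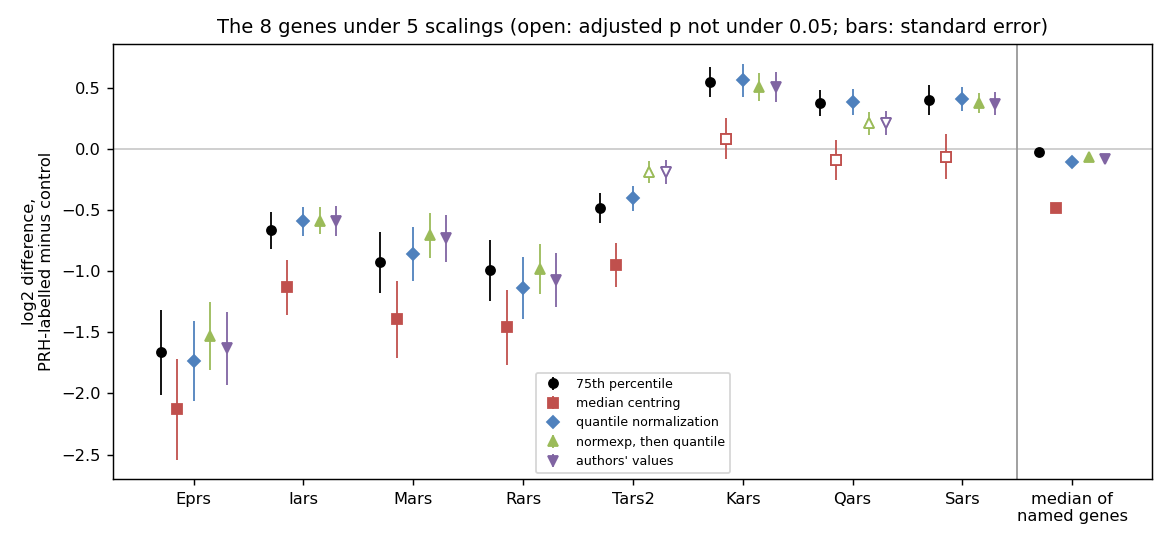
Log2 difference, PRH-labelled minus control, of the 8 genes under 5 ways of scaling the arrays, with bars of 1 standard error (n = 4 arrays each), open symbols where the adjusted p was not under 0.05, and the median of named genes at the right. Eprs, Iars, Mars and Rars stay below 0 with filled symbols, while Kars, Qars and Sars lie at 0.08, -0.09 and -0.06 under median centring, where the median of named genes is at -0.49.

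Of the 8 genes that passed, Qars and Sars changed sign with the scaling, and none of the 5 lower genes did. Median centring moved the median of named genes to -0.49, and it gave 0 higher and 15 lower members in limma, against 4.18% and 32.5% of named genes. Blocking on the mouse number gave 2 higher and 6 lower members, against 15% and 12.4% of named genes. Relative to the median of named genes, the median of the 37 members stood, by construction, at the same -0.11 under the 75th percentile and under median centring.

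Genes that act beside the synthetases passed in both directions, and of those called higher below, Prorsd1, Nupr1, Eif4ebp1 and Gfm2 were no longer past the threshold under median centring, at 0.18, 0.52, 0.20 and 0.09. Nupr1 also missed it after normexp (adjusted p = 0.0505) and in the authors' values (adjusted p = 0.0567). Of 13 other genes of tRNA charging, 1 was higher and 2 were lower, against 10.6% and 12.9% of named genes. Prorsd1, which belongs to a family of proteins that remove wrongly attached amino acids in bacteria, was higher at 0.64 (adjusted p = 0.0124). Prorsd1 has 2 probes, and its call rests on the brighter one. After averaging probes per gene, 0 of these 13 genes were higher and 1 was lower, against 9.36% and 12.5% of named genes. Gatc, a subunit of the mitochondrial amidotransferase that makes glutaminyl-tRNA, was lower at -0.73 (adjusted p = 0.0397). Gatc also has 2 probes, and 1 of the 8 fits that left out an array kept its call. Mtfmt, which formylates the mitochondrial initiator tRNA, was lower at -0.49 (adjusted p = 0.0471). In none of the 8 fits that left out an array did Mtfmt pass, nor when blocked on the mouse number (adjusted p = 0.0606). Aarsd1, an alanyl editing protein, had a difference of 0.51 (adjusted p = 0.0721).

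Of 35 genes of the amino acid response 33 were tested, with a median of -0.14. There were 2 higher and 3 lower, against 10.6% and 12.9% of named genes. Slc7a5, the transporting subunit of a leucine carrier, had -0.09, -0.01, -0.32 and -0.01 on the PRH-labelled arrays and 0.72, 1.62, 0.90 and 0.85 on the control arrays. The groups did not overlap (log2 difference -1.14, adjusted p = 0.0104). Gpt2, an alanine transaminase, was lower at -0.71 (adjusted p = 0.0278), while Nupr1, a stress-induced nuclear protein, and Eif4ebp1, a translation inhibitor, were higher at 0.98 (adjusted p = 0.0118) and 0.67 (adjusted p = 0.0121). Cebpg, a partner of Atf4, was the third lower gene at -0.55 (adjusted p = 0.0329). Of the 8 fits that left out an array, 3 kept the call of Gpt2 and 2 that of Cebpg. Slc7a5, Nupr1 and Eif4ebp1 kept theirs in all 8. Cebpg, Atf4 and Asns are named beyond the rule, after their values were seen. The brighter Atf4 probe differed by -0.47 (adjusted p = 0.0694) and was lower in 3 of the 5 scalings, and the dimmer Atf4 probe was lower at -0.56 (probe-level adjusted p = 0.0170). Asns, the asparagine synthetase that is a known Atf4 target, differed by -0.09 (adjusted p = 0.846).

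Among the 6 genes of eIF2 kinases and uncharged tRNA sensing, 1 was lower and none was higher in limma, and 2 had an unadjusted p under 0.05. Of named genes, 10.6% were higher, 12.9% were lower and 38% had an unadjusted p under 0.05. The same shares apply to the elongation factors below. The lower gene was Eif2ak2, the kinase activated by double-stranded RNA, at -1.09 (adjusted p = 0.00964). Eif2ak4, the kinase that senses uncharged tRNA, differed by -0.16 (adjusted p = 0.471). Of the 6 cytosolic elongation factors none passed in limma in either direction, 1 had an unadjusted p under 0.05, and Eef2 had the smallest p with a difference of -0.37 (adjusted p = 0.113). In each of the other 4 scalings Eef2 was lower, with adjusted p-values of 0.0126 to 0.0289. Of the 5 mitochondrial elongation factors, Gfm1 was lower at -0.98 (adjusted p = 0.0116) and Gfm2 higher at 0.55 (adjusted p = 0.0152). The proteins of these 2 genes act in translocation and in ribosome recycling. Gfm2 also has 2 probes. After averaging probes per gene, 0 of the 5 factors were higher and 1 was lower, against 9.36% and 12.5% of named genes.

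The signal of the arrays and the levels of some cell type markers differed between the groups. The 75th percentile of the signal was 679 to 762 on the PRH-labelled arrays and 1003 to 1283 on the control arrays, and probes well above background made up 72.2% to 73.9% and 64.2% to 69.8% of all probes. PRH-labelled arrays filled one slide column and control arrays the other, and therefore the group and the column of the slide cannot be told apart. All 5 carcinoma markers were well above background on all 8 arrays, with a summed level of 342 to 445 on PRH-labelled arrays and 256 to 331 on control arrays, and Krt14 (1.93, adjusted p = 0.0192) and Krt18 (0.52, adjusted p = 0.0274) were higher, Krt18 in 1 of the 5 scalings, while Krt8 was at -0.44 (adjusted p = 0.0793) without overlap between the groups. The 7 endothelial markers were also well above background throughout, at 21.9 to 28.8 on PRH-labelled arrays and 9.01 to 22.5 on control arrays. The 4 tested macrophage markers of 5 summed to 66.1 to 92.8 and 74.8 to 122, with Lyz2 (-0.86, adjusted p = 0.0172) and Mrc1 (-1.16, adjusted p = 0.0275) lower. The other 2 tested, Adgre1 and Csf1r, had differences above 0 and did not pass. Fibroblast markers summed to 281 to 356 on PRH-labelled arrays and 278 to 407 on control arrays. Of these 5, Pdgfra was lower under all 5 scalings, as were 11.4% of named genes. Relative to the 75th percentile, 3 of the 5 differences were below 0 and 2 above. The part of any of these cell types in the synthetase differences was not tested.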

How the data were processed

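Spot intensities from 8 one-colour Agilent mouse arrays were used. Per the file headers, the deposited intensities are background-corrected processed signals from Feature Extraction 10.7.3.1, whereas the submitters' processing notes name Agilent Feature Extraction 9.1. The authors' normalized intensity table was an alternative. Its offset and background correction are not given in the sources used here.

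Values were log2 of the processed signal, averaged over the spots of a probe, minus log2 of the array's 75th percentile over non-control spots. Probes well above background on at least 4 of 8 arrays were tested (39463 of 55681), and the brightest tested probe stood for a gene. This gave 34543 items, 16377 of them genes named through RefSeq accessions, and promoters came from the same RefSeq assembly. The test was limma 3.58.1 (R 4.3.3), with Benjamini-Hochberg adjustment over all items and a threshold of 0.05. Probe-level adjusted p-values come from a fit over all tested probes. The scripts were tested on simulated data.

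The members and all lists were chosen with earlier results of these data known. All 37 tested members are accounted for, those that passed are given by array, as are most probes that disagreed, and up to 4 genes with the smallest p are named per other list. The labels name no separate cultures, so p-values measure the spread between these samples, and 4 arrays a group limit the precision. Alternatives changed the scaling, background correction, filter, probe rule, block and arrays. The normexp alternative used median spot signals, since the files hold no mean signals. Same-numbered arrays deviated together (r of 0.20, 0.44, 0.67 and 0.27 for mouse numbers 1, 2, 3 and 5). For mouse number 5, neither array correlated best with the same-numbered array of the other group. The numbers also follow the slide rows, so a pairing of the samples and a shared slide row cannot be told apart. One result of a context gene is not reported here.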

Additional observations from a re-analysis of the deposited data

Results flagged for a closer look

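In 2 of the 74 groups of 4 arrays checked, 1 array stood far from the other 3 by Dixon's criterion at the 95% level, and chance alone would mark about 1 group in 20. Aars2, the mitochondrial alanyl enzyme, read -2.42 on control array 3, above the other control arrays at -2.91 to -2.88 (ratio of gap to range 0.948). The scaffold protein Aimp1 read 3.05 on control array 1, below the other control arrays at 3.66 to 3.76 (ratio 0.865).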

How the results depend on the processing

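Of the 8 genes that passed, Eprs and Iars passed in the same direction under all 16 alternatives. Under median centring there were 0 higher and 15 lower members, the medians were -0.52 for cytosolic and -0.69 for mitochondrial enzymes, and Qars (-0.0891) and Sars (-0.0647) changed sign. The median of all named genes moved to -0.49. Without a filter on dim probes 1 member was higher and 6 were lower, the 5 lower ones and Nars2, against 8.17% and 8.08% of named genes, as more items entered the adjustment. With the replicate block there were 2 higher and 6 lower members: Qars, Rars and Sars lost the call and Nars, Hars2 and Iars2 gained it, and no other member's call changed. Leaving out each array in turn gave 0 to 3 higher and 2 to 11 lower members, medians of -0.21 to 0.0493 for cytosolic enzymes (0.0493 without control array 3) and of -0.33 to -0.15 for mitochondrial enzymes, and a cytosolic minus mitochondrial difference of 0.05 to 0.16. The 0 higher members came without PRH-labelled array 2 or control array 5, the 3 higher and the 11 lower without control array 1, and 1 was higher without any other single array. Of named genes, 12.2% were higher and 21.1% lower without control array 1, against 7.02% to 8.64% and 6.61% to 8.54% without any other. Without PRH-labelled array 3 or 5, or control array 2 or 5, 2 members were lower. The cause of these changes was not tested. Over all items the higher and lower calls numbered 5938 and 2996, against 2926 and 7612 under median centring, and 9283 and 2950 with the replicate block. The number of arrays and dim signal (Nars2) limit what can be called.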
